A study of Mus musculus with 3072 samples.

Results

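Microglia of APP/PS1-ApoeKO mice that still read out several genes of the plaque-associated activation program were examined. A cell was selected on its own counts: it had at least 1 read for at least 2 of 10 gate genes, namely Cst7, Clec7a, Itgax, Axl, Lpl, Ank, Csf1, Igf1, Spp1 and Fabp5. The rule took 45 of 334 cells of the cortex and 36 of 321 cells of the hippocampus. That is 81 of 655 APP/PS1-ApoeKO cells, or 12.4% (exact 95% interval 9.94 to 15.1%), and 81 of the 1878 cells with counts in the series. These cells are called activated below, and they were set against the cells of the same tissue with 0 gate genes, 191 in cortex and 220 in hippocampus, called comparison cells. Where a pair of levels is given for a tissue, the comparison cells come first. Because reads of the gate genes chose the members, the gate genes' values are a description and carry no test.

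APP/PS1 mice carry the APPswe and PS1dE9 transgenes and deposit amyloid plaques. In APP/PS1-ApoeKO mice Apoe is deleted in addition, in every cell of the animal. The cells were sorted as CD11b+ and DAPI- single live cells from male mice and read with SmartSeq2, a full-length protocol without molecular identifiers. Besides both APP/PS1-ApoeKO tissues at 18 months, counts of cortex and hippocampus of APP/PS1 mice at 17 months and of cortex of C57BL/6 and C57BL/6-ApoeKO mice at 18 months were used. APP/PS1 cells of 18 months were not analysed here. A difference between APP/PS1-ApoeKO and APP/PS1 therefore cannot be told apart from 1 month of age or from the sequencing lanes, which these groups do not share. The labels name no animal, so each group is 1 sample, cells are not replicates, and all intervals cover counting error only.

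Around plaques, microglia lower genes of the resting state, such as the purinergic receptor gene P2ry12, and raise genes of lysosomal digestion, lipid handling and adhesion. In mice this change is known to depend in large part on the receptor Trem2 and its adaptor Tyrobp. Apolipoprotein E, a lipid carrier made by astrocytes and by activated microglia, is one of the program's most abundant products and a ligand of Trem2.

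The classes had similar depth. The median activated cell held 433566 reads in cortex and 435430 in hippocampus, against 435246 and 446302 in cells with 0 gate genes. It read more genes, 2270 in cortex and 2309.5 in hippocampus, against 2183 and 2088. Thinning to equal reads need not remove this difference, and its part in the counts of genes read per cell was not tested. Mitochondrial transcripts took 3.12% of the reads of activated cells against 2.44% in cortex, and 2.57% against 2.13% in hippocampus, and their part in the results was not tested. The deleted gene had 0 reads in the 45 activated cortex cells. In hippocampus 1 of 36 activated cells held 86 Apoe reads, and the next highest APP/PS1-ApoeKO cell held 22. In activated APP/PS1 cells Apoe was at 25344 RPM (a gene's summed reads scaled to the total reads of the same cells) in cortex and 44963 RPM in hippocampus. Of 10 lists of markers of other cell types, the T or NK cell, neutrophil, border macrophage, neuron and endothelial or mural lists had 2 or more genes read in 0 activated cells. At least 1 list had 2 or more genes read in 13 of 45 activated cortex cells (28.9%, 16.4 to 44.3%) against 31 of 191 cells with 0 gate genes (16.2%), and in 9 of 36 against 40 of 220 (18.2%) in hippocampus. In cortex 2 or more astrocyte markers were read in 3 of 45 activated cells against 7 of 191 cells with 0 gate genes. In hippocampus it was 4 of 36 against 11 of 220. For B cell markers it was 3 against 10 cells in cortex and 1 against 14 in hippocampus. Oligodendrocyte markers accounted for 7 of the 13 and 5 of the 9 cells. The summed level of that list was 197 RPM in cells with 0 gate genes and 173 RPM in activated cells of cortex, and 161 and 254 RPM in hippocampus, with 4 and 6 of its 10 genes at 0 in activated cells.

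Cst7, an inhibitor of cysteine proteases (chromosome 2, 150570415 to 150578944, plus strand, GRCm38), was the most often read gate gene. It was read in 27 of 45 activated cortex cells and in 21 of 36 activated hippocampus cells. The receptor kinase gene Axl was read in 17 and 18 cells, the beta-glucan receptor gene Clec7a in 14 and 15, and the CD11c integrin gene Itgax in 13 and 9. The pyrophosphate transporter gene Ank was read in 16 and 12, the growth factor gene Csf1 in 14 and 10, and the lipoprotein lipase gene Lpl in 7 and 12. The remaining genes were rare in both tissues. Igf1, a growth factor gene, was read in 4 and 1 cells, the fatty acid carrier gene Fabp5 in 1 and 2, and Spp1, which encodes osteopontin, in 0 of 45 and 0 of 36, which allows a share of up to 7.87% and 9.74% by the exact interval. Detections rested on more than a stray read in most cells: 10 of 113 in cortex and 6 of 100 in hippocampus had fewer than 5 reads. In the 27 activated cortex cells that read it, Cst7 had 1 to 6359 reads with a median of 196, and in the 21 hippocampus cells 16 to 2227 with a median of 156. The summed levels rested in part on single cells, since 1 cell gave 71.2% of the Lpl reads of activated cortex cells and 78.4% of those in hippocampus.

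**Figure D1:**
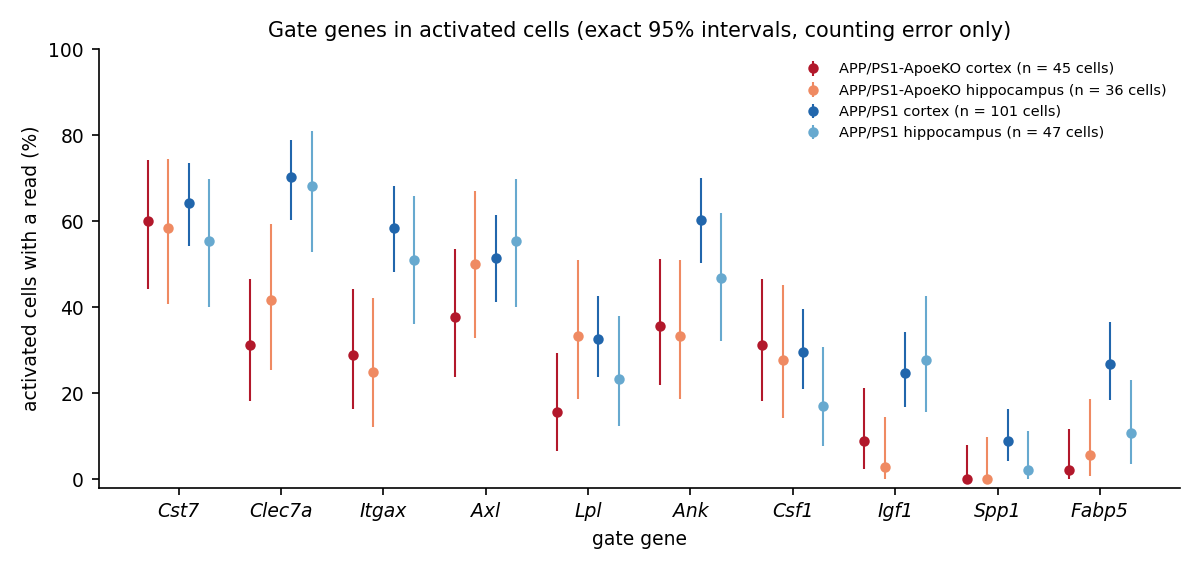
Share of activated cells with at least 1 read of each gate gene, in percent, for the amyloid groups; bars are exact 95% intervals for counting error. Clec7a was read in 31.1% of activated cells of APP/PS1-ApoeKO cortex and 41.7% in hippocampus, against 70.3% and 68.1% in APP/PS1. Itgax, Axl, Ank, Igf1, Spp1 and Fabp5 were also lower in both tissues. Cst7 (60% and 58.3% against 64.4% and 55.3%) and Lpl went in opposite directions in the tissues, and Csf1 was higher in both. Cells were not matched: 13 of 45 and 12 of 36 had 3 or more gate genes, against 70 of 101 and 33 of 47. Their median reads were 433566 and 435430, against 634298 and 629550.

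Most activated cells sat at the lower limit of the rule. In cortex 32 cells had exactly 2 gate genes, 11 had 3 or 4 and 2 had 5 or more; in hippocampus 24, 8 and 4 did. Just outside the limit, 98 cells of cortex and 65 of hippocampus had exactly 1 gate gene. Multiplying the shares of the single genes, as if each gene were read without regard to the others, gives 41.7 cells with 2 or more genes in cortex and 28.1 in hippocampus, beside the 45 and 36 counted. At exactly 2 genes the product was 35.5 beside 32 cells in cortex and 24.7 beside 24 in hippocampus. At 3 or more genes the counts were 13 beside a product of 6.29 in cortex and 12 beside 3.44 in hippocampus. In APP/PS1 the same counts were 70 beside 67.8 in cortex and 33 beside 10.8 in hippocampus. The near match in APP/PS1 cortex held at 3 or more genes only. There 127 cells had 0 gate genes beside a product of 48.5, and 31 had exactly 2 beside 92.8. Cst7 and Clec7a were read together in 47 APP/PS1 cortex cells beside 19.5. Cells with 3 or more genes thus exceeded the product in both APP/PS1-ApoeKO tissues and cells with exactly 2 did not; this is arithmetic and not a test. Lpl and Clec7a were read together in 5 cortex cells beside a product of 0.895, and in 9 hippocampus cells beside 0.972. Axl and Clec7a were read together in 5 cells beside 1.79 and in 10 beside 2.24, and Cst7 and Ank in 9 beside 6.35 in cortex. In cortex Cst7 and Clec7a were also read together in 9 cells beside 3.65, and Itgax and Axl in 7 beside 1.95. Not every cortex pair exceeded the product. Cst7 and Lpl were read together in 2 cells beside 2.06, Itgax and Ank in 2 beside 2.99, and Clec7a and Csf1 in 1 beside 1.58. In hippocampus Cst7 and Itgax lay near the product, read together in 2 cells beside 1.89.

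**Figure D2:**
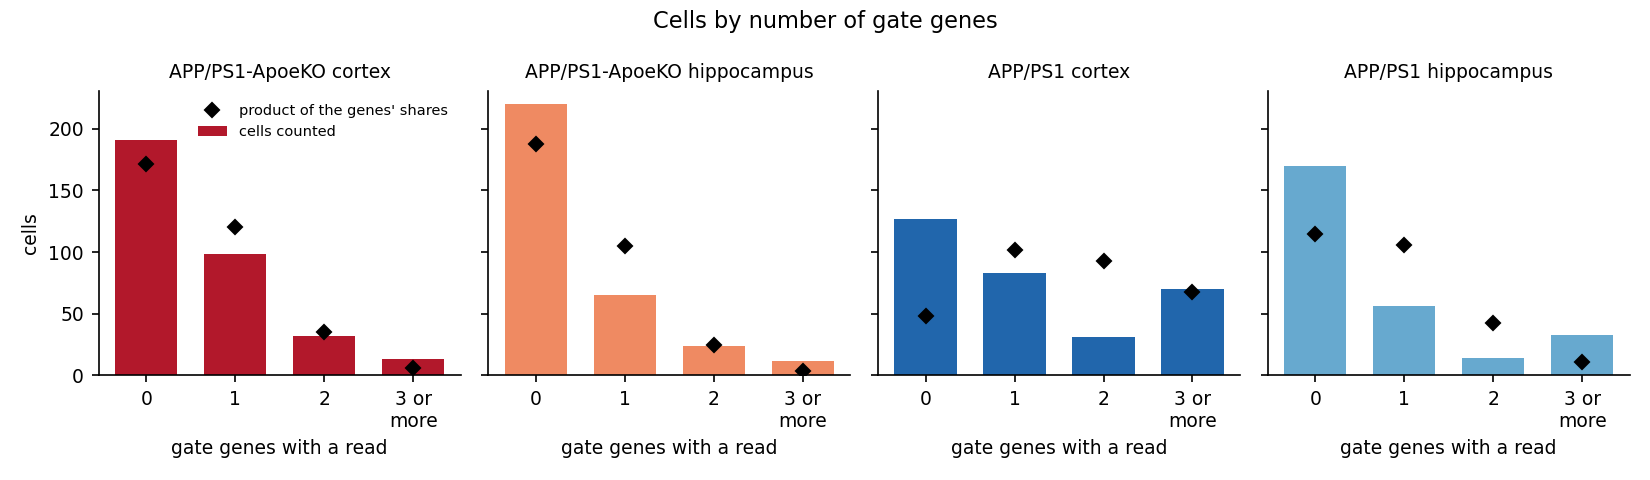
Number of cells by number of gate genes with a read, in the APP/PS1-ApoeKO and APP/PS1 groups, beside the number that the product of the single genes' shares gives. In APP/PS1-ApoeKO 13 cortex and 12 hippocampus cells had 3 or more gate genes, beside products of 6.29 and 3.44.

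Each lane held activated cells. The cortex lanes had 23 of 165 and 22 of 169, and the hippocampus lanes 14 of 165 (8.48%, 4.72 to 13.8%) and 22 of 156 (14.1%, 9.05 to 20.6%), intervals that overlapped. Cells with 3 or more gate genes were 9 and 4 in the cortex lanes and 5 and 7 in the hippocampus lanes. For comparison, the same rule took 101 of 311 cells of APP/PS1 cortex and 47 of 273 of APP/PS1 hippocampus. It took 27 of 313 of C57BL/6-ApoeKO cortex and 7 of 326 of C57BL/6 cortex, groups without amyloid transgenes. Depth differed: the median cell with 0 gate genes held 435246 reads in APP/PS1-ApoeKO cortex, 611164 in APP/PS1 cortex and 771787 in C57BL/6 cortex. With each cell thinned to 100000 reads the shares were 12.3% and 10.3% in APP/PS1-ApoeKO cortex and hippocampus. They were 30.2% and 16.9% in APP/PS1, 7.79% in C57BL/6-ApoeKO cortex and 2.15% in C57BL/6 cortex.

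The 6 cells with 5 or more gate genes varied among themselves. A cortex cell with 8 gate genes had Cst7 at 11257 RPM, Trem2 at 11250 RPM and Lpl at 2181 RPM, with P2ry12 at 1305 RPM and Tmem119, another resting-state gene, at 79.7 RPM; it also read 2 or more dendritic cell markers. A hippocampus cell with 8 gate genes had Clec7a at 2862 RPM and Gpnmb, a glycoprotein of lipid-laden macrophages, at 6220 RPM, with P2ry12 at 47.1 RPM and 0 reads of Tmem119. The latter cell is the one with 86 Apoe reads, and it also read 2 or more monocyte and oligodendrocyte markers. In the 4 cells with 5 or 6 gate genes P2ry12 lay between 1555 and 2877 RPM, and 1 of them, a hippocampus cell, read 2 or more oligodendrocyte markers. These 6 cells read 17 to 23 of 32 other activation genes and 17 to 21 of 24 homeostatic genes.

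Genes of the activation program outside the gate were higher in activated cells of both tissues. Of 32 listed genes 28 reached 1 RPM, and 22 of these were higher in both tissues and 1 lower in both; over the 12709 genes of that level 17.4% were higher in both and 36.4% lower in both. The median log2 ratio of summed RPM, with 0.5 RPM added, was 0.68 in cortex and 0.76 in hippocampus, beside -0.24 and -0.22 for all genes and -0.15 and -0.10 for genes of at least 20 RPM. With each gene's ratio averaged over the tissues before the median was taken, the list's median was 0.72. Without the cells that read 2 or more markers of another cell type it was 0.40. It was 0.47 without the 6 cells with 5 or more gate genes and 0.46 against cells with exactly 1 gate gene. In cortex alone it was 0.42 without lane 33, the lane whose cells carry no depth in the labels, against 0.68. Lyz2, which encodes lysozyme, was at 772 RPM in cells with 0 gate genes and 1568 RPM in activated cells of cortex, and 862 and 1465 RPM in hippocampus. Its counting interval in activated cells was 1551 to 1586 RPM in cortex and 1447 to 1484 RPM in hippocampus. In cells with 0 gate genes it was 766 to 778 and 856 to 868 RPM. Such an interval takes each read as an independent count, which a protocol without molecular identifiers does not ensure. Variation from cell to cell is not part of it, so it gives no test of the Lyz2 difference. Cd63, a lysosomal tetraspanin, was at 395 and 663 RPM in cortex and 316 and 662 RPM in hippocampus, and the tetraspanin Cd9 at 1719.7 and 2578 RPM in cortex and 1729 and 2279.6 RPM in hippocampus. The macrophage lysosome gene Cd68 was at 1143 and 1645 RPM in cortex and 1219 and 1911 RPM in hippocampus, and Cd52, a surface glycoprotein, was read in 35 of 45 activated and 102 of 191 comparison cells in cortex, and in 28 of 36 and 116 of 220 in hippocampus. Trem2 itself had log2 ratios of 0.39 and 0.25 and Tyrobp of 0.50 and 0.30, smaller than the list's median.

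Several members of that list rested on few cells. Lgals3, which encodes galectin-3, was read in 2 of 45 activated and 2 of 191 comparison cells in cortex, and in 4 of 36 and 0 of 220 in hippocampus, and 1 cell held 99.4% of its reads in activated cortex cells. Gpnmb was read in 1 activated hippocampus cell and 0 of 45 in cortex. Cybb, a subunit of the phagocyte oxidase, was read in 5 of 45 activated and 1 of 191 comparison cells in cortex, and in 3 of 36 and 0 of 220 in hippocampus. Capg, an actin-capping protein gene, was at 43.5 and 157 RPM in cortex and 15.5 and 85.0 RPM in hippocampus, with 44.5% and 24% of the reads in 1 cell.

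Cells with 3 or more gate genes read more of the other activation genes than cells with fewer, as a description. With each cell thinned to 100000 reads (2 hippocampus cells were shallower and left out), cortex cells with 0, 1, 2 and 3 or more gate genes read a mean of 11.9, 12.4, 13.3 and 14.8 of the 32 genes, and hippocampus cells 11.7, 12.9, 12.6 and 16.3 (SD over cells 1.81 to 3.14). Without thinning the means of cells with 0 and with 3 or more gate genes were 12.2 and 15.2 in cortex and 11.98 and 16.8 in hippocampus. Single cells overlapped widely: thinned cortex cells with 0 gate genes read 4 to 16 genes (median 12), and those with 3 or more read 11 to 22 (median 14). The list's median log2 ratio against cells with 0 gate genes was 0.34 in cortex and 0.11 in hippocampus at exactly 2 gate genes, and 1.08 in both at 3 or more. In hippocampus the latter rested on the 4 cells with 5 or more gate genes, since the 8 cells with 3 or 4 had a median of 0.28; in cortex the 11 such cells had 0.94. In APP/PS1 cells with 3 or 4 gate genes it was 1.03 in cortex and 1.38 in hippocampus.

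**Figure D3:**
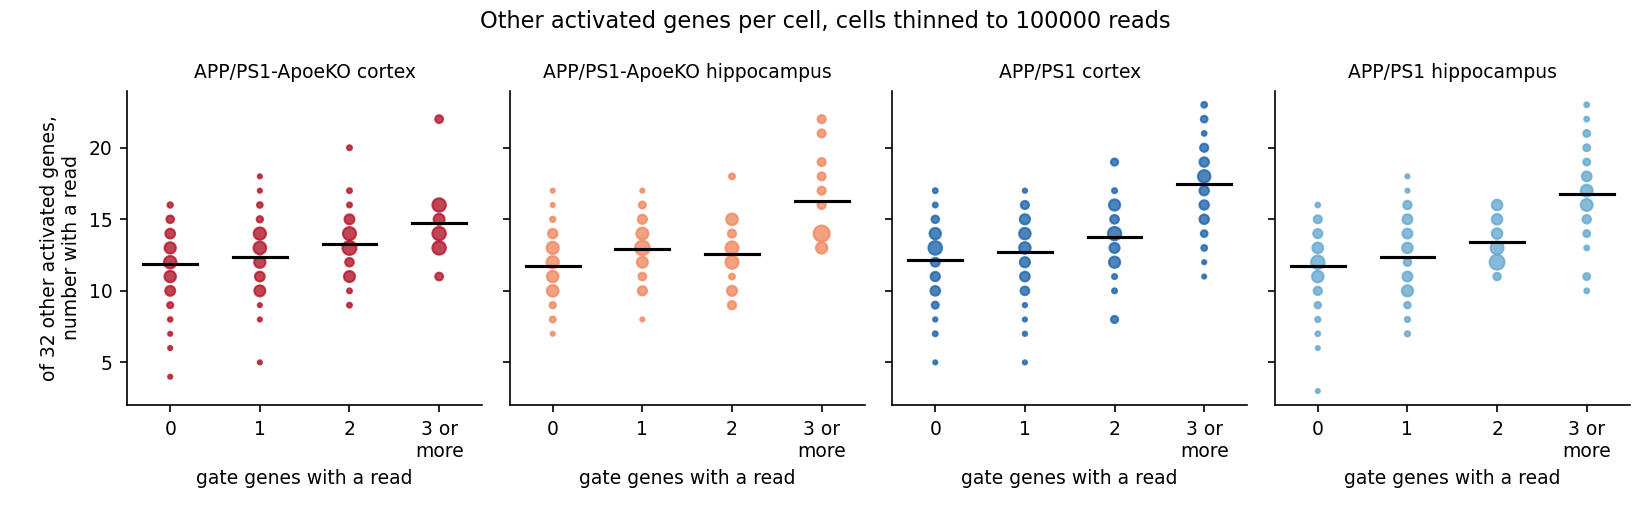
Number of the 32 other activation genes with a read per cell, after thinning to 100000 reads, by number of gate genes; point area gives the share of the class's cells and the line the mean. In APP/PS1-ApoeKO the mean went from 11.9 at 0 to 14.8 at 3 or more gate genes in cortex and from 11.7 to 16.3 in hippocampus, with wide overlap of single cells.

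None of these differences passed edgeR's test across genes. edgeR's quasi-likelihood test was run on 10 sums of cells, with the group as a block and 1 activation effect for the APP/PS1-ApoeKO tissues together; C57BL/6 cortex, with 7 activated cells, was left out. With 2 residual degrees of freedom, it called 0 of 18755 genes (0%) at a Benjamini-Hochberg adjusted p of 0.05, while 695 (3.71%) had an unadjusted p under 0.05 and DESeq2 called 688 (3.67%). Among the 28 other activation genes 17 had an unadjusted edgeR p under 0.05. The tissues stand in for replicates here, and the labels do not say whether they came from separate animals.

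Single genes of the resting state were lower in activated cells of both tissues, while the list's median lay near that of the genes at large in cortex and below it in hippocampus. Of 24 homeostatic genes 19 were lower in both tissues and 0 higher in both, with medians of -0.18 in cortex and -0.43 in hippocampus, beside 36.4% of all genes lower in both; the medians of all genes were -0.24 and -0.22, and those of genes of at least 20 RPM -0.15 and -0.10. In cortex the list's median was -0.32 in lane 33 and -0.04 in lane 34, and -0.06 in the 32 cells with exactly 2 gate genes against -0.66 in the 13 cells with 3 or more. In hippocampus it was -0.26 and -0.49 in the corresponding cells. The genes at large were lower at 3 or more gate genes too. All genes had -0.28 and -0.99 in cortex and -0.33 and -0.82 in hippocampus. Genes of at least 20 RPM had -0.13 and -0.49 in cortex and -0.14 and -0.32 in hippocampus. With ratios averaged gene by gene over the tissues, the homeostatic median was -0.28, and -0.18 against cells with exactly 1 gate gene. For all genes these values were -0.32 and -0.16. Of the 24 homeostatic genes 4 had an unadjusted edgeR p under 0.05. P2ry12 was at 5400.2 RPM in cells with 0 gate genes and 3873 RPM in activated cells of cortex, and 6029.7 and 3509 RPM in hippocampus. The fractalkine receptor gene Cx3cr1 was at 11244 and 7658 RPM in cortex and 12114 and 9095 RPM in hippocampus, and Tmem119 at 3925 and 3110.0 RPM in cortex and 4539 and 3317 RPM in hippocampus. P2ry12 was read in 43 of 45 activated and 190 of 191 comparison cells in cortex, and in 35 of 36 and 220 of 220 in hippocampus.

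Lysosomal and ribosomal protein genes lay above the genes at large in both tissues. Of all 12709 genes, 17.4% were higher and 36.4% lower in both tissues, with medians of -0.24 in cortex and -0.22 in hippocampus. Genes of at least 20 RPM had medians of -0.15 and -0.10. Of 12705 such genes of at least 1 RPM that edgeR tested, 688 had an unadjusted edgeR p under 0.05. Of 28 lysosome genes 19 were higher in both tissues and 2 lower in both, with medians of 0.32 and 0.28. The protease gene Ctsb was at 3141 RPM in cells with 0 gate genes and 5806 RPM in activated cells of cortex, and 3431 and 5558 RPM in hippocampus, and Ctsd, another cathepsin gene, at 5617 and 9442 RPM in cortex and 6691 and 9399 RPM in hippocampus. Of 16 ribosomal protein genes, 16 were higher in both tissues, with medians of 0.45 and 0.51, and 8 had an unadjusted edgeR p under 0.05. Rplp0 was at 443 and 657 RPM in cortex and 382 and 672 RPM in hippocampus; processed copies of ribosomal protein genes can share reads. Among 12 MHC class I genes 6 were higher in both tissues and 1 lower in both, with medians of 0.49 in cortex and 0.22 in hippocampus. Hippocampus cells with exactly 1 gate gene had a median of 0.60, above that of the activated cells, and activated cells with 3 or more gate genes had -0.08. Against cells with exactly 1 gate gene the class I median of activated cells was 0.33 in cortex and -0.42 in hippocampus. H2-K1, which presents peptides to T cells, was at 622 and 1235 RPM in cortex and 721 and 1266 RPM in hippocampus. The light chain gene B2m was at 4073 and 5799 RPM in cortex and 3668 and 5040.1 RPM in hippocampus. MHC class II rested on few cells: the invariant chain gene Cd74 was read in 9 of 45 activated and 25 of 191 comparison cells in cortex, and in 7 of 36 and 10 of 220 in hippocampus, with 57.1% of the hippocampus reads in 1 cell. The iron storage gene Fth1 was at 1750.3 and 2463 RPM in cortex and 1479 and 2501 RPM in hippocampus. Of 13 glycolysis genes 12 were higher in cortex and 6 in hippocampus, with medians of 0.60 and -0.01. Of all 12709 genes 4896 were higher in cortex and 5192 in hippocampus. Gapdh was at 221 and 349 RPM in cortex and 256 and 557 RPM in hippocampus, higher in both, unlike its list's median in hippocampus.

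**Figure D4:**
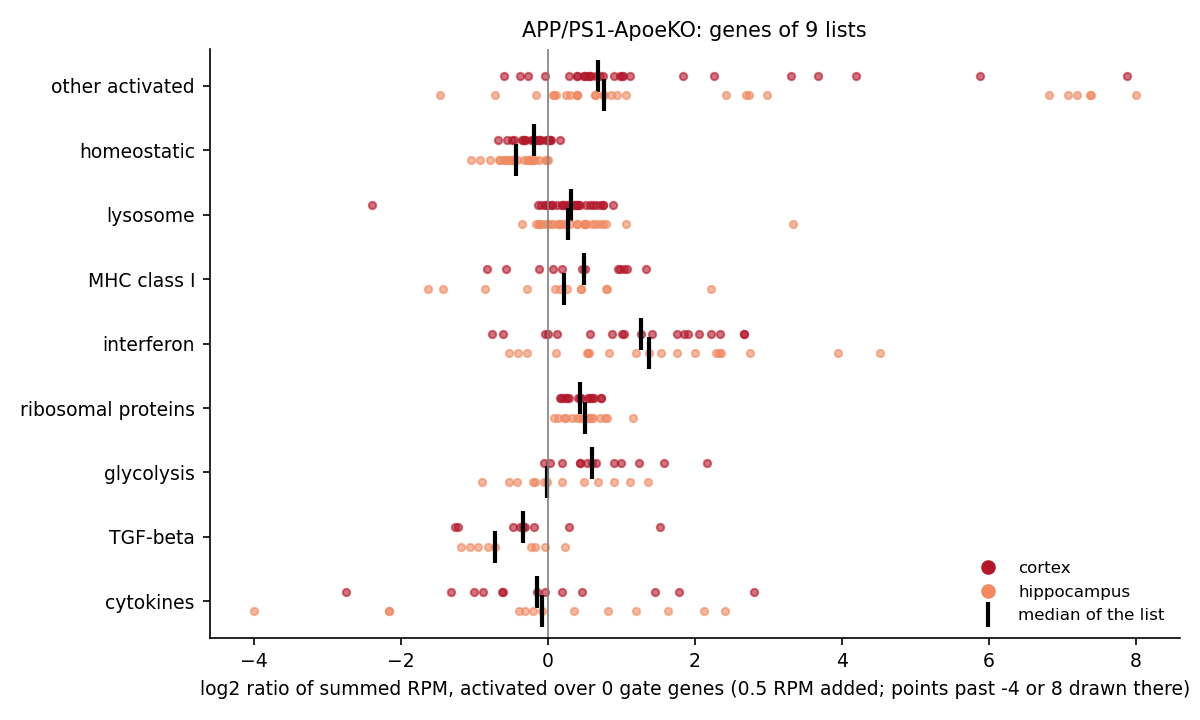
Log2 ratio of summed RPM in activated cells over cells with 0 gate genes, 1 point per gene, by gene list in APP/PS1-ApoeKO cortex and hippocampus; points past -4 or 8 are drawn at those values. The list medians were 0.68 and 0.76 for other activation genes, 0.45 and 0.51 for ribosomal proteins, and -0.18 and -0.43 for homeostatic genes.

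Interferon-response genes were read in a larger share of the cells with gate genes. Reads of 4 or more of 20 interferon genes, a number set after the values were seen, were found in 12 of 45 activated cortex cells (26.7%, 14.6 to 41.9%) against 23 of 191 cells with 0 gate genes (12.04%, 7.79 to 17.5%). In hippocampus it was 12 of 36 (33.3%, 18.6 to 50.97%) against 21 of 220 (9.55%, 6.01 to 14.2%). Cells with exactly 1 gate gene had 22.4% and 32.3%, near the activated cells. In APP/PS1 the shares of activated cells and cells with 0 gate genes were 12.9% and 8.66% in cortex and 12.8% and 10.6% in hippocampus, and in C57BL/6-ApoeKO cortex 10 of 27 and 16 of 223. With cells thinned to 100000 reads and the classes redrawn on the thinned reads, the APP/PS1-ApoeKO counts were 10 of 41 against 20 of 200 in cortex and 10 of 33 against 21 of 225 in hippocampus. Axl is itself an interferon target, and it was looked at apart: the share was 4 of 17 activated cortex cells with Axl and 8 of 28 without it, and 6 of 18 and 6 of 18 in hippocampus. In the other groups the share was larger with Axl: 10 of 52 against 3 of 49 in APP/PS1 cortex, 5 of 26 against 1 of 21 in APP/PS1 hippocampus, and 5 of 6 against 5 of 21 in C57BL/6-ApoeKO cortex. The difference between groups was not tested.

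The interferon genes varied by lane and by cell. The list median was 1.27 in cortex and 1.38 in hippocampus, and 0.00, 2.37, 1.47 and 1.21 in the lanes. With ratios averaged gene by gene over the tissues, it was 1.19 against cells with 0 gate genes. Against cells with exactly 1 gate gene it was 0.093. With 3 gate genes required the tissues parted, at 2.60 in the 13 cortex cells and -0.81 in the 12 hippocampus cells, where the direction reversed. Ifi27l2a, an interferon-induced membrane protein gene, was at 13.5 RPM in cells with 0 gate genes and 88.0 RPM in activated cells of cortex, and 12.2 and 63.1 RPM in hippocampus, and its lane log2 ratios were 2.36, 2.83, 2.64 and 2.16. It was read in 11 of 45 activated and 10 of 191 comparison cells in cortex, and in 10 of 36 and 19 of 220 in hippocampus, with 58.8% of the cortex reads in 1 activated cell. Ifitm3, which restricts virus entry, had lane ratios of -0.18, 3.27, 1.47 and 2.37. Ifit3 was read in 2 of 45 activated and 9 of 191 comparison cells in cortex, and in 3 of 36 and 5 of 220 in hippocampus, so that its ratios of 2.06 and 3.95 rest on few cells.

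**Figure D5:**
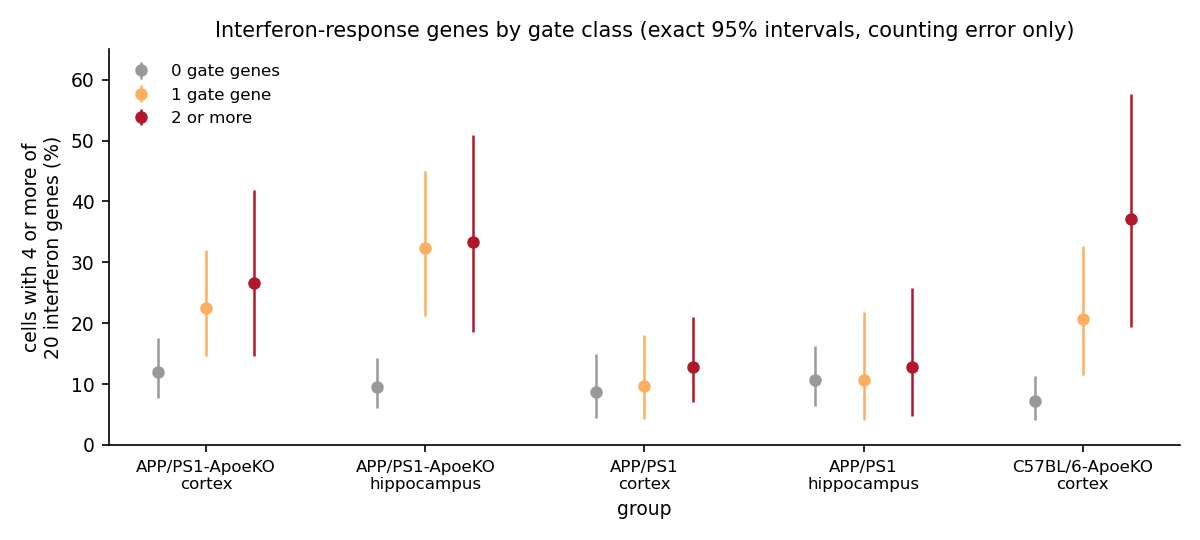
Percent of cells with reads for 4 or more of 20 interferon-response genes, by number of gate genes, with exact 95% intervals for counting error. In APP/PS1-ApoeKO hippocampus the share was 9.55% at 0, 32.3% at 1 and 33.3% at 2 or more gate genes, and in APP/PS1 hippocampus 10.6%, 10.7% and 12.8%.

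Across all genes outside the gate, those with at least 20 RPM in 1 class and reads in at least 25% of cells of the higher class were ranked by the smaller ratio of the tissues. In cortex 3.47% of 2965 such genes were 2-fold or more above and 6.88% were 2-fold or more below the cells with 0 gate genes, and in hippocampus 6.36% and 7.55% of 3114. Of 2586 genes that qualified in both tissues, 7 were past 2-fold upward in both, 21 were past it downward in both, and 58.9% had the same sign. The 12 higher genes were Mllt10, Tlr2, H2-Q7, Cd83, Aplp2, Npnt, Olfr111, Pkm, Mif, Tmem147, Cd52 and Nprl3. These genes and the 12 lower genes below were picked by the ratios of these same cells. Their lane ratios and unadjusted p values follow in part from the pick and are no separate support. Cd83, a surface protein of activated antigen-presenting cells (chromosome 13, 43784775 to 43803132, plus strand), was at 242 RPM in cells with 0 gate genes and 517 RPM in activated cells of cortex, and 256 and 708 RPM in hippocampus. Its lane ratios were 1.06, 1.11, 0.89 and 1.79, above 0 in each lane, and its log2 activation effect was 1.31 ± 0.18 (SE; edgeR unadjusted p = 0.000435, adjusted p = 0.82). A single cell held 45.6% of its reads in activated hippocampus cells. The lipopeptide receptor gene Tlr2 was at 179.9 and 416 RPM in cortex and 259 and 560.4 RPM in hippocampus, and was read in 14 of 45 activated and 54 of 191 comparison cells in cortex, and in 23 of 36 and 84 of 220 in hippocampus. Pkm, which encodes the last enzyme of glycolysis, was at 171 and 342 RPM in cortex and 118 and 304 RPM in hippocampus, with an activation effect of 1.21 ± 0.20 (SE; edgeR unadjusted p = 0.00116, adjusted p = 0.852). Mif, a cytokine gene, was read in 26 of 45 activated and 54 of 191 comparison cells in cortex, and in 18 of 36 and 62 of 220 in hippocampus. Aplp2, a relative of the amyloid precursor protein gene, was at 88.1 and 195 RPM in cortex and 87.2 and 259 RPM in hippocampus, and its lane ratios were -0.40, 1.96, 0.83 and 1.52, below 0 in 1 cortex lane.

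The 12 lower genes were Rock1, Rasa1, Rreb1, Mia2, Kat7, Upk1b, Rhobtb1, Sqrdl, Prpsap2, Cep68, Arid1a and Pcif1. Rreb1, a zinc finger transcription factor gene, was at 171 and 56.4 RPM in cortex and 158 and 48.0 RPM in hippocampus, with lane ratios of -0.91, -3.31, -2.20 and -1.47 and an activation effect of -1.63 ± 0.26 (SE; edgeR unadjusted p = 0.00099, adjusted p = 0.852). Kat7, a histone acetyltransferase gene, was at 151 and 34.6 RPM in cortex and 138 and 49.9 RPM in hippocampus. Arid1a, a subunit of a chromatin remodeller, was at 204 and 93.3 RPM in cortex and 177 and 81.0 RPM in hippocampus and was read in 21 of 45 activated and 127 of 191 comparison cells in cortex, and in 17 of 36 and 133 of 220 in hippocampus. Mia2 was at 80.0 and 26.5 RPM in cortex and 74.1 and 21.6 RPM in hippocampus, and its log2 ratios in APP/PS1 were 0.30 and 0.53.

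The activation effect was smaller than in APP/PS1 for most of the other activation genes, without passing the test. The difference, APP/PS1-ApoeKO minus APP/PS1, had a median of -0.56 over the 28 genes and was positive for 5 of them, beside a median of -0.19 over all genes, and 10 of 28 had an unadjusted edgeR p under 0.05. Over the 24 homeostatic genes the difference had a median of 0.06 and was positive for 14, and 4 had an unadjusted edgeR p under 0.05. Across all genes edgeR called 0 of 18755 (0%), 448 (2.39%) had an unadjusted p under 0.05, and DESeq2 called 294 (1.57%). The classes were not matched in gate genes: 70 of 101 and 33 of 47 activated APP/PS1 cells had 3 or more, against 13 of 45 and 12 of 36. Serpine2, a protease inhibitor gene, had log2 ratios of 0.56 and 0.11 against 1.30 and 1.38 in APP/PS1, a difference of -1.15 ± 0.25 (SE; edgeR unadjusted p = 0.0048, adjusted p = 1). Among homeostatic genes, Crybb1 had -0.46 and -0.58 against -2.02 and -2.72, a difference of 1.72 ± 0.35 (SE; edgeR unadjusted p = 0.00305, adjusted p = 1), while P2ry12 had -0.48 and -0.78 against -0.64 and -1.01.

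Cytokine genes lay near the genes at large, of which 17.4% were higher and 36.4% lower in both tissues. Of 13 cytokine genes 3 were higher and 5 lower in both tissues, with medians of -0.14 and -0.07, beside 1.43 in APP/PS1 cortex and 0.36 in APP/PS1 hippocampus. The chemokine gene Ccl4 was read in 7 of 45 activated and 7 of 191 comparison cells in cortex, and in 5 of 36 and 7 of 220 in hippocampus, and its log2 ratios were 2.80 and 2.42 against 4.70 and 4.87 in APP/PS1. Ccl3, a related chemokine gene, had 1.79 and 0.36 against 3.44 and 3.25. Of 17 genes of lipid uptake and storage 6 were higher and 2 lower in both tissues, with medians of 0.13 in cortex and 0.50 in hippocampus. Of 12 cholesterol efflux genes 4 were higher and 6 lower in both, with medians of -0.03 and -0.58. Of 15 cholesterol synthesis genes it was 4 and 6, with medians of -0.055 and -0.58. The medians of all genes were -0.24 and -0.22. Of 9 TGF-beta genes 6 were lower and 0 higher in both, with medians of -0.34 and -0.72, and Ski, a repressor of that pathway, was at 278 and 119 RPM in cortex and 175 and 90.0 RPM in hippocampus.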

How the data were processed

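The deposited table holds the authors' read counts per gene and cell for 1878 cells of 6 groups. The submitters' processing notes name STAR 2.5.2, featureCounts 1.5.1, Seurat 2.3.1 and mm10 without saying what each did, and whether strand was used in counting was not stated, so overlapping genes can share reads. Totals in the labels equal the table in 1713 cells; 165 cells of cortex lane 33 carry no total and were kept. Members and gene lists were chosen with earlier results of these data known. For each class and tissue the cells' counts were added up and scaled to RPM. Classes of at least 10 cells were tested with edgeR 4.0.16 (TMM scaling, quasi-likelihood) and, as an alternative, DESeq2 1.42.0 in R 4.3.3, with Benjamini-Hochberg adjustment; the scripts were tested on simulated data. Gate genes were left out of calls. Named genes are list members and, by the smaller ratio of both tissues, 12 genes in each direction; predicted genes, pseudogenes, mitochondrial genes and spike-ins were not named. Shares carry exact binomial and sums exact Poisson 95% intervals.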

Additional observations from a re-analysis of the deposited data

How the results depend on the processing

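With edgeR, 0 genes were called for the activation effect and for its difference from APP/PS1 under each edgeR alternative run, leave-one-out fits included (0 to 0), with 467 to 1121 and 213 to 795 genes at an unadjusted p under 0.05; DESeq2 called 688 and 294. With 3 gate genes required, the activated share was 3.89% in cortex and 3.74% in hippocampus. The other activation list's median, 0.72 over both tissues, was 0.82 with 5 reads of a gate gene, 1.15 with 3 gate genes, 0.40 without cells with markers of another type, 0.66 without lane 33 (0.42 in cortex), and 0.46 against cells with 1 gate gene. Alternatives added after the data were seen gave 0.59 without cells with Apoe reads and 0.47 without cells with 5 or more gate genes. The homeostatic median, -0.28, was -0.64 with 3 gate genes, -0.18 against cells with 1 gate gene and -0.25 without lane 33 (-0.04 in cortex). The median of all genes was -0.32, and -1.18 with 3 gate genes. The interferon median, 1.19, was 1.02 thinned, 1.28 with 5 reads, 0.78 with 3 gate genes (2.60 in cortex and -0.81 in hippocampus, a reversal), 1.32 without cells with other markers, 1.49 without lane 33, 1.31 without cells with 5 or more gate genes, 1.31 as a mean over cells, 0.80 with 5 RPM added and 0.093 against cells with 1 gate gene; the causes were not tested. With ratios averaged gene by gene over the tissues, these 3 lists' medians kept their sign in the runs. No paired analysis was possible because the labels pair no samples across groups; the block in the edgeR fits joins the classes of 1 group. With 36 to 45 cells per class, sums of low genes rest on few cells.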
